A study of Homo sapiens with 36 samples.

Results

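The 2 cytosolic HSP90 genes, 6 genes of HSP90 cochaperones and 2 genes of heat shock factors were followed through every library of the series. The members were taken by gene symbol from each count table, 10 of the 54583 genes listed, and all 10 passed the filter on low counts in all 3 tables. They were HSP90AA1 and HSP90AB1, the cochaperone genes AHSA1, STIP1, CHORDC1, FKBP4, PTGES3 and CDC37, and HSF1 and HSF2. Gene-level read counts came from polyA RNA of the MDA-MB-231 line, which derives from a human breast cancer of the triple-negative kind and was grown in RPMI with serum. The cells received both SHP1705 and a proteasome inhibitor (called the combination here), the inhibitor alone, SHP1705 alone, or the solvent DMSO, which every group received as the drug vehicle. SHP1705, given at 10 µM, is a small molecule that stabilises cryptochrome, a repressor protein of the circadian clock. The inhibitor was MG132 at 100 nM for 8 h in the first set of 12 libraries, and carfilzomib at 10 nM for 8 h in the second and for 24 h in the third. Each set had its own libraries of all 4 groups, with 3 libraries a group and 36 in all.

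HSP90 is an abundant ATP-driven chaperone that helps kinases, steroid receptors and many other client proteins reach their active fold. Cytosolic HSP90 is made as an inducible alpha form (HSP90AA1) and a more constant beta form (HSP90AB1), and cochaperones steer its cycle by loading clients, slowing or speeding the ATPase and holding the closed form. HSF1 is the main transcription factor of the heat shock response. It is held in check by chaperones, is set free when unfolded proteins build up, as they do when the proteasome is blocked, and binds repeats of the unit GAA in alternating orientation. HSF2 is a related factor that can join HSF1 in mixed complexes.

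Promoter windows from RefSeq (build GRCh38.p14, 250 bases before to 50 after each gene start) were searched for 8 of the 10 members, in 14 windows. No window of FKBP4 or HSF1 was searched, so whether their promoters hold such units was not tested. The stretches below are shown because they hold the densest runs of heat shock units among these windows. Letters run 5′ to 3′ on the gene's own strand, and capitals mark matches to GAANNTTC or TTCNNGAA, that is 2 neighbouring units in opposite orientation. Both patterns read the same on the opposite strand, and overlapping matches were each counted. The HSP90AA1 stretch lies at chr14:102087105-102087134 on the minus strand, 90 to 61 bases before the nearer start, the CHORDC1 stretch at chr11:90223082-90223111 on the minus strand, 62 to 33 bases before its start, and the HSP90AB1 stretch at chr6:44247768-44247847 on the plus strand, 175 to 96 bases before the third start listed.
HSP90AA1: tcTTCCGGAAGGTTCgggaggcTTCTGGAA
CHORDC1: cgGAAAATTCGCGAAGGTTCCTGAAacgca
HSP90AB1: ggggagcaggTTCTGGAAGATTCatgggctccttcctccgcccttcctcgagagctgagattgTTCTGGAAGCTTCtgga

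At least 1 such match was found in 4737 of all 35116 promoter windows, a share of 13.5%, and 3 alternating units in a row in 172 windows, a share of 0.49%. The CHORDC1 window held 6 matches with 3 runs of 3 units, the third HSP90AB1 window 4 matches with 2 such runs, and the second HSP90AA1 window 3 matches with 1 such run. Windows with 4 or more matches made up 0.0285% of all windows. STIP1 had 1 match, 14 bases after its second start, and the windows of AHSA1, PTGES3, CDC37 and HSF2 held none. A match is a property of the letters and was not tested for binding.

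Library totals ran between 34191153 and 39251609 counts in the MG132 set, between 17781035 and 27670810 counts with carfilzomib at 8 h, and between 18864725 and 34008423 counts with carfilzomib at 24 h. The line's genes VIM, CD44, AXL, CAV1, PLAUR and KRT18 were present in all libraries, and ESR1 and PGR, absent from triple-negative cells, were at or below 0.444 CPM (counts relative to the library's total in the usual CPM unit, scaled with TMM factors). ESR1 and PGR belong to a list of 5 genes chosen as low in this line, whose sum ran from 6.72 to 32.8 CPM over the libraries. Most of that sum came from the other genes of the list, which were thus detected. PER3, a clock gene repressed by cryptochrome, served with HSPA1A, the inducible HSP70, to check the labels. PER3 had 4.46 to 5.07 CPM in SHP1705 libraries, against 13.8 to 14.7 CPM in DMSO libraries of the MG132 set, and 0.709 to 1.43 CPM in SHP1705 libraries, against 18.9 to 22.9 CPM in DMSO libraries at 24 h. In the carfilzomib set at 8 h the library labelled replicate 1 stood apart from the other libraries of its labelled group in PER3 or HSPA1A in all 4 groups. Results of that set therefore stand last, per labelled library, with and without these 4 libraries. The labels do not say whether replicates were separate cultures, so p-values measure the spread between libraries, which may be technical.

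In DMSO cells of the MG132 set the HSP90 genes were the most abundant members per length. HSP90AB1 had 885 ± 12.5 and HSP90AA1 623 ± 6.37 CPM per kilobase of exons (SD, n = 3), using the joined exons of GENCODE release 29 for length. STIP1, which couples HSP70 to HSP90, had 105 ± 3.01 and PTGES3, the p23 protein that holds HSP90 closed, 104 ± 0.768 CPM per kilobase. These neighbours did not differ beyond their spread. CDC37, which brings kinases to HSP90, followed with 86.4 ± 1.77, AHSA1, the activator of the HSP90 ATPase, with 43.7 ± 1.22 and FKBP4, an immunophilin that works with steroid receptors, with 39.9 ± 0.355 CPM per kilobase. HSF1 had 18.2 ± 0.496, CHORDC1, a zinc-binding HSP90 partner, 7.92 ± 0.147, and HSF2 5.97 ± 0.194 CPM per kilobase. In DMSO cells at 24 h the order of the HSP90 genes was the same, with 939 CPM per kilobase for HSP90AB1 and 384 CPM per kilobase for HSP90AA1, while CHORDC1 was the lowest member at 3.71 CPM per kilobase. That rank depends on the joined exon length, 10655 bases for CHORDC1 and 2702 bases for HSF2. In plain CPM these DMSO cells had 39.5 CPM of CHORDC1 and 13.5 CPM of HSF2.

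The first comparison asked what SHP1705 and MG132 did together at 8 h. All 10 members were higher in combination cells than in DMSO cells, and the rise was steepest for HSP90AA1 and CHORDC1 and shallowest for CDC37 and HSF1. Among all 16591 genes tested, 29.2% were called higher and 58.8% in either direction at an adjusted p under 0.05 (edgeR quasi-likelihood test, Benjamini-Hochberg adjustment), and 29.7% were called lower. The median log2 fold change was 1.29 over the members and -0.01 over all genes. In bulk RNA, a change in RNA per cell and a change in the share of cells making it cannot be told apart.

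HSP90AA1 had 18307, 18507 and 18208 CPM in the 3 combination libraries, against 3309.6, 3257 and 3248 CPM in the 3 DMSO libraries. The groups were far apart, with little spread within either. The fold was 5.61, a log2 fold change of 2.49 ± 0.03 (SE, adjusted p 3.92e-21). This gene took 1.54% to 1.57% of all counts in combination libraries, against 0.340% to 0.347% in DMSO libraries. HSP90AB1 had 8378, 8455 and 8670.0 CPM in combination libraries and 2644, 2598 and 2672 CPM in DMSO libraries. Its fold was 3.22, a log2 fold change of 1.69 ± 0.02 (adjusted p 5.25e-21), again with no overlap. Per kilobase, the alpha form then stood at 3495 and the beta form at 2853 CPM in combination cells. This was the reverse of their order per kilobase in DMSO cells. In plain CPM the alpha form was the higher in both groups, with a DMSO mean of 3271 CPM against 2638 CPM for the beta form. The reversal thus depends on the joined exon lengths of 5248 bases for HSP90AA1 and 2980 bases for HSP90AB1.

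Among the cochaperone genes, CHORDC1 had 469, 476 and 460 CPM in combination libraries and 82.8, 84.5 and 85.9 CPM in DMSO libraries. Its 5.55-fold rise (log2 2.47 ± 0.04, adjusted p 1e-19) was close to that of HSP90AA1. AHSA1 had 475, 481 and 452 CPM in combination libraries, against 127, 133 and 126 CPM in DMSO libraries, a log2 fold change of 1.87 ± 0.03 (adjusted p 4.15e-19). STIP1 had 1374, 1436 and 1433 CPM in combination libraries, against 500.4, 473 and 491 CPM in DMSO libraries, a log2 fold change of 1.53 ± 0.03 (adjusted p 4.48e-19). For all of these genes the lowest combination library lay well over the highest DMSO library. PTGES3 averaged 729 ± 22.5 CPM in combination cells and 353 ± 2.61 CPM in DMSO cells (SD, n = 3 each), a 2.07-fold rise. FKBP4 averaged 369.9 ± 9.02 CPM in combination cells and 207 ± 1.84 CPM in DMSO cells, a 1.79-fold rise (log2 0.84, and 0.54 with library totals). The rise of CDC37 was small, with 348, 339.7 and 333 CPM in combination libraries, against 259, 269 and 260.1 CPM in DMSO libraries. Its log2 fold change of 0.37 ± 0.03 (adjusted p 2.33e-09) became 0.07 (adjusted p 0.0522) when libraries were scaled by their totals alone.

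Both heat shock factor genes were called higher, HSF1 by the smaller fold and with a direction that turned under library totals. HSF2 had 27.5, 25.9 and 28.8 CPM in combination libraries, against 16.0, 15.7 and 16.7 CPM in DMSO libraries, a log2 fold change of 0.76 ± 0.06 (adjusted p 1.87e-09), and 0.46 with library totals. HSF1 had 108, 114 and 113 CPM in combination libraries, against 99.0, 93.7 and 96.9 CPM in DMSO libraries, a log2 fold change of 0.21 ± 0.04 (adjusted p 1.39e-04). HSF2 was clear of overlap by a wide margin and HSF1 by a narrow one. The direction of HSF1 turned with the scaling, to -0.09 (adjusted p 0.0528) with library totals. That scaling moved the median of all genes to -0.31 and the calls to 2287 higher and 8740 lower, against 4838 higher and 4925 lower with TMM factors. TMM factors were 0.845 to 0.856 in combination libraries and 1.05 to 1.07 in the others of this set.

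**Figure D1:**
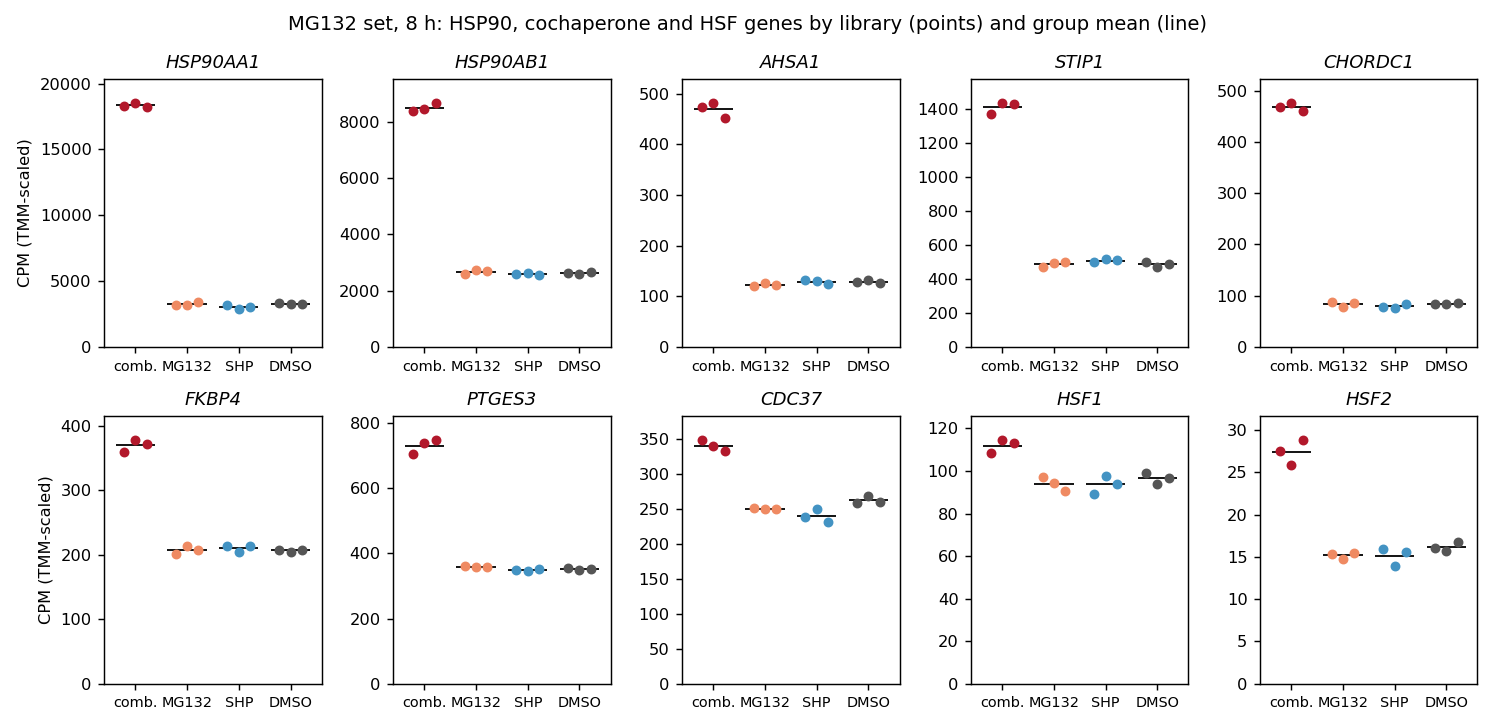
Level of each member in CPM (vertical axis, starting at 0) in the combination, MG132, SHP1705 and DMSO libraries of the MG132 set at 8 h, with a point per library and a line at the group mean. The 3 combination libraries lie above the other 9 in every panel, by the widest margin for HSP90AA1 and CHORDC1 and the narrowest for HSF1. Of all genes, 29.2% were called higher against DMSO, and the share without overlap was not counted. With library totals for scaling, the direction of HSF1 turned and the log2 fold change of CDC37 against DMSO fell to 0.07.

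With MG132 alone at this dose no member was called against DMSO. By edgeR, 0 of the 10 members and 0 of 16591 genes were called, a share of 0%. At an unadjusted p under 0.05 there were 1574 genes with 1 member, CDC37, among them, and DESeq2 called 95 genes and 0 members. HSP90AA1 had 3196, 3192 and 3440.3 CPM in MG132 libraries, overlapping the DMSO range of 3248 to 3309.6 CPM. Its log2 fold change was 0.00 with a 95% interval of -0.06 to 0.07, and intervals of the other members lay between -0.22 and 0.08.

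Set against MG132 alone, the combination again had all 10 members higher, where 28.2% of all genes were called higher and 57.2% in either direction. HSP90AA1 differed by 2.49 ± 0.03 and HSP90AB1 by 1.67 ± 0.02 on the log2 scale. CDC37 differed by 0.44 ± 0.03 (adjusted p 1.82e-10) and HSF1 by 0.25 ± 0.04 (adjusted p 2.24e-05). With library totals CDC37 differed by 0.13 (adjusted p 0.00101) and HSF1 turned to -0.06. An interaction term asked whether the drugs together departed from the sum of their separate log2 effects. It was positive for all 10 members, where 24.7% of all genes were called positive and 48.9% in either direction, with a median of 1.26 over the members. The term was 2.59 ± 0.04 for HSP90AA1, 2.56 ± 0.06 for CHORDC1, 1.93 ± 0.05 for AHSA1, 0.95 ± 0.09 for HSF2 and 0.57 ± 0.04 for CDC37. With library totals it was 0.61 for HSF2, 0.48 for FKBP4 (0.81 with TMM factors) and 0.24 for CDC37, all still called. For HSF1 it was 0.30 ± 0.06 (adjusted p 2.34e-04), and -0.04 (adjusted p 0.583) with library totals.

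POSTN, a gene of fibroblasts and other stromal cells, moved with these groups. It had 98.3, 222 and 242 CPM in combination libraries, 33.6, 0.161 and 173 CPM in MG132 libraries, 0.267, 28.2 and 29.4 CPM in SHP1705 libraries and 0.110 to 0.255 CPM in DMSO libraries. The 6 stromal genes checked summed to 115 to 271 CPM in combination libraries, 6.77 to 194 CPM in MG132 libraries, 6.72 to 40.1 CPM in SHP1705 libraries and 6.86 to 9.29 CPM in DMSO libraries. In the 7 libraries with 28.2 CPM of POSTN or more most of that sum was POSTN, and in the other 5 it was COL1A1, at 3.98 to 5.68 CPM. LUM stayed at or below 1.68, COL3A1 at or below 1.04 and DCN at or below 0.171 CPM, with DCN at 0 in 3 libraries. CDH2, also on that list, had 6.53 to 16.7 CPM in combination libraries and 0.995 to 1.55 CPM in DMSO libraries, and CDKN2A, known as deleted in this line, had 3.08 to 7.58 CPM in combination libraries and 0 to 0.0276 CPM in DMSO libraries. The MG132 library with 173 CPM of POSTN had 3440.3 CPM of HSP90AA1, against 18208 CPM or more in combination libraries. Without the 4 libraries outside the combination with 28.2 CPM of POSTN or more, HSP90AA1 still differed between combination and DMSO by 2.48. All DMSO and combination libraries were kept in that fit. It held a single MG132 library and a single SHP1705 library, so it cannot decide the comparison with MG132 or the interaction. No combination library was free of POSTN, and the part of the stromal genes in the members' differences was not tested.

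Other genes of HSP90 biology moved less uniformly in combination cells at 8 h. Of 31 further genes for HSP90 paralogues, cochaperones and regulators, 28 could be tested, and 14 were called higher and 7 lower in combination cells than in DMSO cells, with a median log2 fold change of 0.23. Among all genes 29.2% were called higher and 29.7% lower. SUGT1, a cochaperone of immune receptors, had 149 ± 7.97 CPM in combination cells and 60.9 ± 1.06 CPM in DMSO cells (SD, n = 3 each), a log2 fold change of 1.29. PPID, the cyclophilin 40 of steroid receptor complexes, rose to 86.8 ± 4.69 CPM in combination cells, against 39.98 ± 2.44 CPM in DMSO cells. DNAJC7, which binds both HSP70 and HSP90, rose by 0.68 on the log2 scale. HSP90B1, the paralogue of the endoplasmic reticulum, averaged 1779 ± 32.1 CPM in combination cells and 1131 ± 8.81 CPM in DMSO cells, a log2 fold change of 0.65 ± 0.02 (adjusted p 1.45e-14). TRAP1, the mitochondrial paralogue, had 56.2 ± 2.10 CPM in combination cells and 59.4 ± 0.871 CPM in DMSO cells, which was not called (log2 -0.08 ± 0.05, adjusted p 0.159).

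Of 18 further genes known as heat shock targets, 17 were called higher in combination cells and none lower, with a median log2 fold change of 1.80. Among all genes 29.2% were called higher and 29.7% lower. DNAJB1, an HSP40 partner of HSP70, had 3705 ± 22 CPM in combination cells and 256 ± 4.18 CPM in DMSO cells, a log2 fold change of 3.86 ± 0.04. HSPH1, a nucleotide exchange factor of HSP70, rose by 2.73 ± 0.03 and ZFAND2A, a stress-induced partner of the proteasome, by 3.94 ± 0.05. HSPA1A had 38927, 40611 and 39707 CPM in combination libraries and 533 to 615 CPM in DMSO libraries, though its reads can be split with the near-identical HSPA1B.

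**Figure D2:**
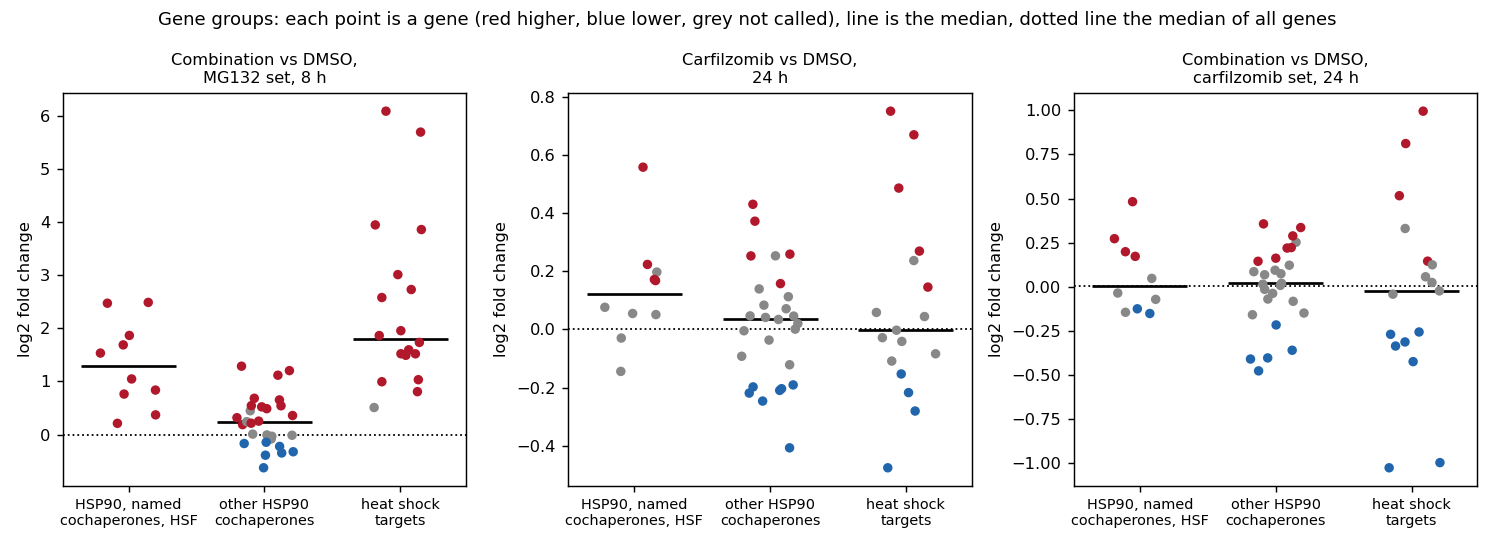
Log2 fold change (vertical axis) of each gene of 3 groups, namely the members, the further HSP90 genes and the further heat shock targets, in combination against DMSO cells of the MG132 set, carfilzomib against DMSO cells at 24 h and combination against DMSO cells at 24 h. Points are genes (red called higher, blue called lower, grey not called), lines are group medians and the dotted line is the median of all genes. In the MG132 set the median was 1.29 for the members, 0.23 for the further HSP90 genes and 1.80 for the heat shock targets, and at 24 h the group medians lay between -0.02 and 0.12; HSF1 is among the red points of the first panel and turned to -0.09 with library totals.

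SHP1705 alone had small effects on the members. In the MG132 set 2 of 10 were called lower and none higher, where 4.08% of all genes were called lower, 3.45% higher and 7.53% in either direction. HSP90AA1 had 3196, 2876 and 3036 CPM in SHP1705 libraries, against 3309.6, 3257 and 3248 CPM in DMSO libraries. The groups did not overlap, and the log2 fold change was -0.11 ± 0.03 (adjusted p 0.0400). CDC37 had 239, 249 and 231 CPM in SHP1705 libraries and 259, 269 and 260.1 CPM in DMSO libraries, a log2 fold change of -0.13 ± 0.03 (adjusted p 0.0118). The HSP90AA1 call was lost with RLE factors (adjusted p 0.0529), with library totals (adjusted p 0.0985), and without any single library compared other than SHP1705 replicate 1 (adjusted p 0.0804 to 0.205). The CDC37 call was lost without DMSO replicate 2 (adjusted p 0.0700) or SHP1705 replicate 3 (adjusted p 0.0651). Neither call held without the 4 POSTN-holding libraries, which leaves 1 SHP1705 library. HSP90AA1 was then at -0.03 (adjusted p 0.696), while CDC37 was as large as before at -0.14 (adjusted p 0.169). Of the further HSP90 genes, HSBP1, a binding partner of HSF1, fell by 0.15 and TELO2, a cochaperone of large kinases, by 0.18 on the log2 scale, and HSP90B1 (log2 0.01) and TRAP1 (log2 -0.12) were not called.

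At 24 h HSP90AA1 was again lower with SHP1705 alone, with 1758, 1833.5 and 1797 CPM in SHP1705 libraries, against 1993, 1982 and 2071 CPM in DMSO libraries. The log2 fold change was -0.17 ± 0.04 (adjusted p 0.0234), where 2.51% of all genes were called lower, 1.95% higher and 4.46% in either direction. HSP90AA1 was the only member called, and leaving out any single library compared other than SHP1705 replicate 2 took the adjusted p to between 0.0538 and 0.127. CHORDC1 had 31.5, 35.2 and 33.3 CPM in SHP1705 libraries and 40.5, 36.9 and 41.2 CPM in DMSO libraries. This did not pass edgeR's test (log2 -0.25 ± 0.07, adjusted p 0.0582) and passed that of DESeq2 (adjusted p 0.0459). Of 27 further HSP90 genes tested, HSP90B1 rose by 0.20 on the log2 scale, while FKBP5, an immunophilin related to FKBP4, fell by 0.42, TELO2 by 0.32 and STUB1, the ubiquitin ligase CHIP, by 0.29.

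The next comparison asked what carfilzomib did at 24 h. Both HSP90 genes, AHSA1 and PTGES3 were higher in carfilzomib than in DMSO cells, and no member was called lower. The 4 calls among 10 members stood against 10.1% of all 16183 genes called higher and 21.5% called in either direction, and the members' median log2 fold change was 0.12, against 0.00 for all genes. HSP90AA1 had 2942, 2778 and 3177 CPM in carfilzomib libraries and 1993, 1982 and 2071 CPM in DMSO libraries. Every carfilzomib library was well above every DMSO library, with a 1.47-fold difference (log2 0.56 ± 0.04, adjusted p 1.48e-09). HSP90AB1 had 3265, 3329.6 and 3209.9 CPM in carfilzomib libraries, against 2856, 2714 and 2829 CPM in DMSO libraries. It too had no overlap, and the difference was 1.17-fold (log2 0.22 ± 0.03, adjusted p 3.92e-05).

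AHSA1 had 167, 168 and 159.8 CPM in carfilzomib libraries and 152, 144.5 and 144 CPM in DMSO libraries, a log2 fold change of 0.17 ± 0.05 (adjusted p 0.0102). Without the second DMSO library its adjusted p was 0.0558. PTGES3 had 334, 328 and 385 CPM in carfilzomib libraries and 304, 311 and 314 CPM in DMSO libraries, a log2 fold change of 0.17 ± 0.05 (adjusted p 0.0197). The third carfilzomib library was the high one, and without it the value fell to 0.09 (adjusted p 0.100). Without the first or second DMSO library the adjusted p for PTGES3 was 0.0961 and 0.0614. CHORDC1, at 43.3 to 48.0 CPM in carfilzomib libraries and 36.9 to 41.2 CPM in DMSO libraries, was just short of a call (log2 0.20 ± 0.07, adjusted p 0.0558), and was called with library totals (adjusted p 0.0328) and without the second carfilzomib library (adjusted p 0.0394). STIP1, FKBP4, CDC37, HSF1 and HSF2 were not called, with log2 fold changes from -0.14 for HSF1 to 0.08 for HSF2, and HSF1 was called lower only when the second carfilzomib library was left out (log2 -0.22, adjusted p 0.00518). CDC37, at 0.05, was called higher only when the third carfilzomib library was left out (log2 0.13, adjusted p 0.0380).

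The effect sizes of these genes cannot be matched between the inhibitors, because dose, time and set differed. HSP90AA1 stood at a log2 fold change of 0.56 for carfilzomib alone at 24 h and at 0.00 for MG132 alone at 8 h.

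In the combination with carfilzomib at 24 h, 6 of 10 members were called against DMSO, 4 higher and 2 lower, where 13% of all genes were called higher and 14.3% lower (27.3% in either direction). HSP90AA1 had 2856, 2702 and 2888 CPM in combination libraries and 1993, 1982 and 2071 CPM in DMSO libraries, a log2 fold change of 0.48 ± 0.04 (adjusted p 1.02e-08). HSP90AB1 had 3178, 3093 and 3194 CPM in combination libraries, against 2856, 2714 and 2829 CPM in DMSO libraries, a log2 fold change of 0.17 ± 0.03 (adjusted p 4.42e-04). Neither gene overlapped between these groups. CDC37 had 421, 409 and 426 CPM in combination libraries, against 351, 333 and 355 CPM in DMSO libraries, a log2 fold change of 0.27 ± 0.05 (adjusted p 5.12e-04). AHSA1 rose by 0.20 ± 0.05 (adjusted p 0.00203).

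STIP1 and PTGES3 went the other way. STIP1 had 482, 459.7 and 477 CPM in combination libraries, against 519, 500.5 and 527 CPM in DMSO libraries (log2 -0.12 ± 0.04, adjusted p 0.0231). PTGES3 had 277, 274 and 285 CPM in combination libraries, against 304, 311 and 314 CPM in DMSO libraries (log2 -0.15 ± 0.05, adjusted p 0.0332). The groups did not overlap for either gene, but both calls were lost when libraries were scaled by totals (adjusted p 0.064 for STIP1 and 0.0935 for PTGES3) and, for STIP1, with no filter on low counts (adjusted p 0.0818). Leaving out DMSO replicate 1 or 3 or combination replicate 2 took the adjusted p of STIP1 to between 0.0723 and 0.117. Leaving out any DMSO library or combination replicate 1 or 2 took that of PTGES3 to between 0.055 and 0.113. CHORDC1, FKBP4, HSF1 and HSF2 were not called, with log2 fold changes between -0.14 and 0.05.

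**Figure D3:**
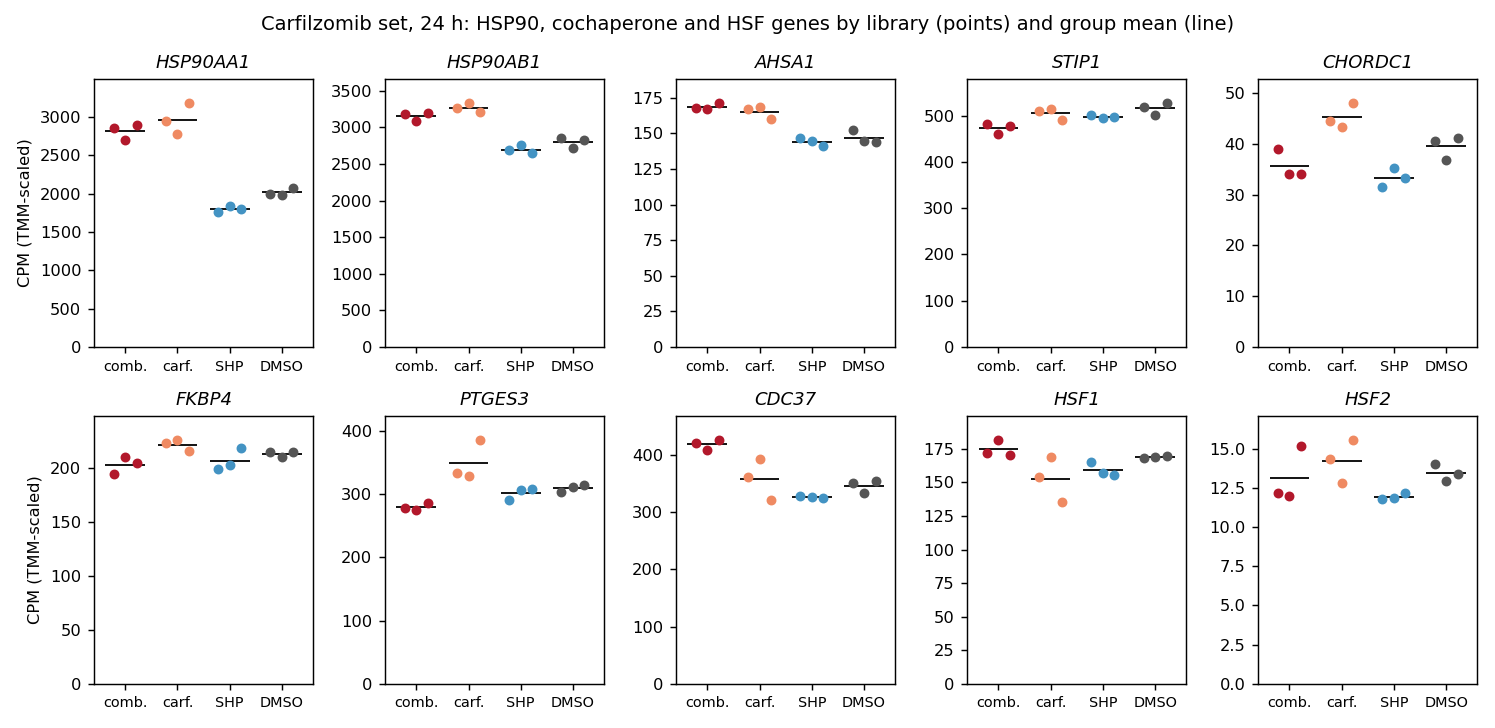
Level of each member in CPM (vertical axis, starting at 0) in the combination, carfilzomib, SHP1705 and DMSO libraries of the carfilzomib set at 24 h, with a point per library and a line at the group mean. HSP90AA1 lies between 2702 and 3177 CPM in all 6 libraries with carfilzomib and between 1758 and 2071 CPM in the other 6, while CHORDC1 and PTGES3 are higher in carfilzomib libraries than in combination libraries.

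Directly against carfilzomib alone, the combination at 24 h had CHORDC1 and PTGES3 lower and CDC37 and HSF1 higher. These 4 calls compare with 4.67% of all genes called lower, 4.36% called higher and 9.02% in either direction. CHORDC1 had 38.9, 34.2 and 34.1 CPM in combination libraries and 44.6, 43.3 and 48.0 CPM in carfilzomib libraries, a log2 fold change of -0.34 ± 0.07 (adjusted p 0.00372). PTGES3 had 277, 274 and 285 CPM in combination libraries and 334, 328 and 385 CPM in carfilzomib libraries, a log2 fold change of -0.32 ± 0.05 (adjusted p 2.98e-04). For both genes each combination library was below each carfilzomib library.

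CDC37 had 421, 409 and 426 CPM in combination libraries, against 362, 393 and 321 CPM in carfilzomib libraries (log2 0.22 ± 0.05, adjusted p 0.0108), with an adjusted p of 0.0542 without the third combination library and a value of 0.15 (adjusted p 0.0334) without the third carfilzomib library. HSF1 had 172, 181 and 170.5 CPM in combination libraries, against 154, 169 and 135 CPM in carfilzomib libraries (log2 0.19 ± 0.06, adjusted p 0.0462). The second carfilzomib library came close to the combination libraries for HSF1, and leaving out any single library compared other than that one took its adjusted p to between 0.0832 and 0.185. Without the third carfilzomib library the HSF1 value itself was 0.11. HSP90AA1 differed by -0.08, with a 95% interval of -0.16 to 0.01, and HSP90AB1 by -0.05, with an interval of -0.12 to 0.02.

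The interaction term at 24 h was called for 0 members by edgeR, where 0.482% of all genes were called. At an unadjusted p under 0.05 there were 2202 genes with 3 members among them, and DESeq2 called 360 genes with 3 members. These 3 members were PTGES3 at -0.28 ± 0.07 (adjusted p 0.0838 by edgeR and 0.00776 by DESeq2), CDC37 at 0.31 ± 0.08 (0.0759 and 0.00698) and HSF1 at 0.28 ± 0.08 (0.135 and 0.0414). Without the second carfilzomib library, edgeR called the same 3 members. Over the fits without single libraries, edgeR called between 20 and 477 of all genes. Among the further genes, the term was called negative for HSP90B1 (log2 -0.29, adjusted p 0.0269) and 4 heat shock targets. The term for HSP90AA1 was 0.09, with a 95% interval of -0.03 to 0.22, and that for HSP90AB1 0.00, with an interval of -0.10 to 0.10.

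**Figure D4:**
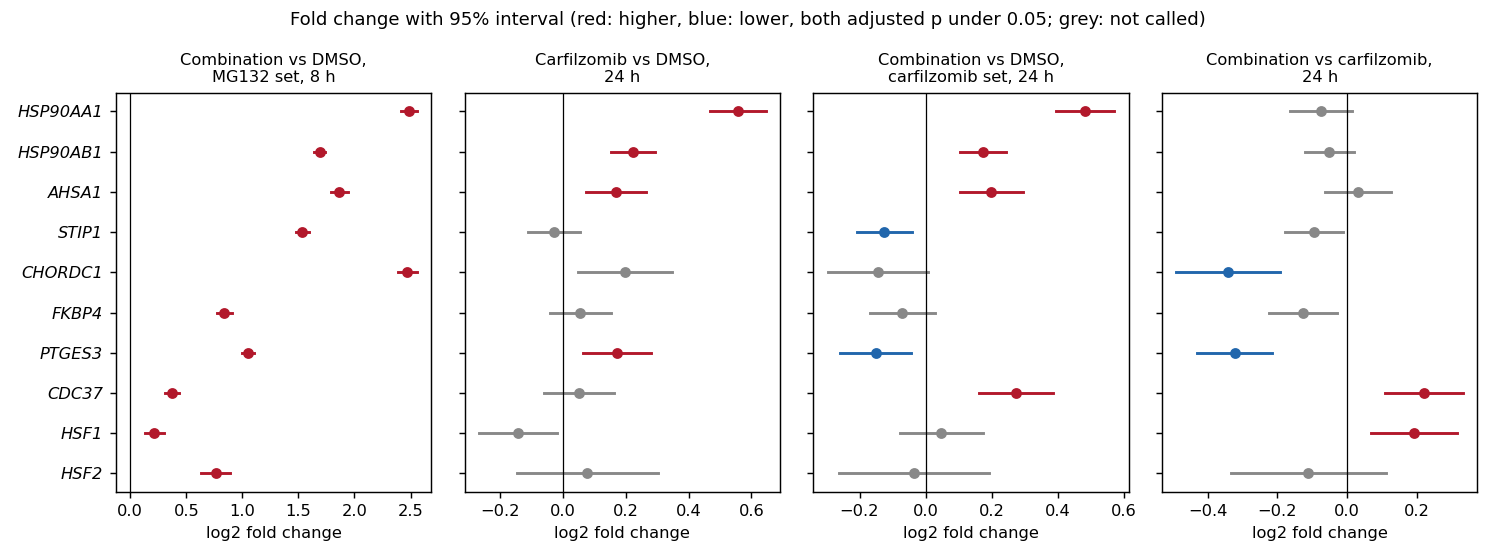
Log2 fold change (horizontal axis, scales differ between panels) with its 95% interval for each member in 4 comparisons, from left to right the combination against DMSO in the MG132 set, carfilzomib against DMSO at 24 h, the combination against DMSO at 24 h and the combination against carfilzomib at 24 h. Red is called higher, blue called lower and grey not called; all 10 members are red in the first panel, where HSF1 at 0.21 turned to -0.09 with library totals, and CHORDC1 at -0.34 and PTGES3 at -0.32 are blue in the last.

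The other HSP90 genes split at 24 h. Of 27 tested, 5 were called higher and 7 lower in carfilzomib than in DMSO cells. Among all genes 10.1% were called higher and 11.4% lower in that comparison. RPAP3, a subunit of the HSP90-linked R2TP complex, rose by 0.43, PPID by 0.37 and RUVBL1, an ATPase of R2TP, by 0.26 on the log2 scale, while STUB1 fell by 0.41. HSP90B1 rose by 0.16 (adjusted p 0.00846) and TRAP1 fell by 0.20 (adjusted p 0.0285). In combination against DMSO cells, 7 of the 27 were called higher and 5 lower, where 13% of all genes were called higher and 14.3% lower. USP19, a deubiquitinase with HSP90-binding domains, rose by 0.36, while NUDCD3 fell by 0.36, FKBP5 by 0.40, TELO2 by 0.48 and TRAP1 by 0.22, and HSP90B1 was not called (log2 0.07). In combination against carfilzomib cells, 4 were called higher and 3 lower, where 4.36% of all genes were called higher and 4.67% lower. FKBP5 fell by 0.42, while USP19 rose by 0.27 and RUVBL2 by 0.17, and neither HSP90B1 (log2 -0.09) nor TRAP1 (log2 -0.01) was called.

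Heat shock targets were mixed at 24 h as well. Of 17 tested, 5 were called higher and 4 lower in carfilzomib cells, with HSPA1A at 1126, 1159 and 1046 CPM in carfilzomib libraries and 690.0 to 715 CPM in DMSO libraries. Among all genes 10.1% were called higher and 11.4% lower in that comparison. ZFAND2A rose by 0.75 ± 0.07 and HSPA1B by 0.49 ± 0.04 on the log2 scale. In combination cells 4 of the 17 were called higher and 7 lower than in DMSO cells, against 13% of all genes higher and 14.3% lower. HSPA8, the constitutive HSP70, averaged 800.2 ± 32.4 CPM in combination cells, 1341 ± 125 CPM in carfilzomib cells and 1628 ± 10.9 CPM in DMSO cells. It fell by 1.03 ± 0.05 against DMSO and by 0.74 ± 0.05 against carfilzomib. UBB, a polyubiquitin gene, fell by 1.00 ± 0.06 against DMSO and by 0.52 ± 0.06 against carfilzomib, while HSPA1A rose by 0.81 ± 0.05 against DMSO. Against carfilzomib 1 target was called higher and 6 lower, with DNAJA1, another HSP40, down by 0.32 ± 0.04. Among all genes 4.36% were called higher and 4.67% lower there.

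In the carfilzomib set at 8 h the levels of most members split with HSPA1A, across the labelled groups. HSPA1A had 892, 12019.5 and 15052 CPM in the libraries labelled combination replicates 1, 2 and 3, 792, 726 and 896 CPM in those labelled carfilzomib, 19856, 705 and 693 CPM in those labelled SHP1705, and 14559, 23605 and 23242 CPM in those labelled DMSO. PER3 had 1.92, 7.69 and 8.20 CPM in the libraries labelled combination, 6.78, 1.26 and 1.69 CPM in those labelled carfilzomib, 2.25, 9.62 and 7.91 CPM in those labelled SHP1705, and 8.19, 2.06 and 1.55 CPM in those labelled DMSO. In DMSO libraries of the other sets HSPA1A stood at 533 to 715 CPM and PER3 at 13.8 to 22.9 CPM. The libraries labelled DMSO here thus had high HSPA1A, and 2 of them low PER3.

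HSP90AA1 had 2755, 7664 and 7717 CPM in the libraries labelled combination and 3002, 2918 and 2899 CPM in those labelled carfilzomib. It had 11958, 2978 and 3105 CPM in the libraries labelled SHP1705 and 8125, 13810.4 and 13751 CPM in those labelled DMSO. The 6 libraries with HSPA1A at 12019.5 CPM or more were the same 6 in which HSP90AA1 was at 7664 CPM or more, and the other 6 lay between 2755 and 3105 CPM of HSP90AA1. CHORDC1 split the same way, with 78.5, 222 and 230 CPM in the libraries labelled combination, 78.2 to 81.4 CPM in those labelled carfilzomib, 315, 86.9 and 84.3 CPM in those labelled SHP1705 and 238, 325 and 336 CPM in those labelled DMSO. HSF1 had a narrower range, from 94.6 to 122 CPM over all 12 libraries. The ranges of FKBP4 (261 to 356 CPM) and CDC37 (312 to 459 CPM) were narrow as well.

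Taken as labelled, 7 members were called lower in libraries labelled carfilzomib than in those labelled DMSO, where 11.3% of all 15577 genes were called lower and 23% in either direction. HSP90AA1 differed by -2.02 ± 0.52 (adjusted p 0.0400) and STIP1 by -1.08 ± 0.25 (adjusted p 0.0400). The direction is drawn from libraries whose labels PER3 and HSPA1A put in doubt. Without DMSO replicate 1 there were 8 members called, and without any other single library of these 6 there were 0. The calls among all genes moved as well, from 0 to 3115 over these 6 fits. The other comparisons of this set had 0 members and 0 genes called by edgeR, a share of 0%. At an unadjusted p under 0.05 there were 2244 genes with 5 members for SHP1705 against DMSO, 1454 with 0 members for the combination against DMSO, 898 with 2 members for the combination against carfilzomib and 3951 with 9 members for the interaction. DESeq2 called 0 genes for SHP1705 against DMSO, 1 gene for the combination against DMSO, 1 gene for the combination against carfilzomib and 315 genes with 1 member for the interaction.

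Without the 4 libraries labelled replicate 1, the 2 libraries left in each labelled group were close to each other for HSP90AA1, and the calls changed. Against libraries labelled DMSO, 7 members were called lower for the combination, 10 for carfilzomib and 9 for SHP1705. Of all 15651 genes, 9% were called lower for the combination, 26.9% for carfilzomib and 24.8% for SHP1705, and 18%, 53.8% and 49.3% in either direction. HSP90AA1 differed from libraries labelled DMSO by -0.84 in those labelled combination, by -2.25 in those labelled carfilzomib and by -2.18 in those labelled SHP1705. Between combination and carfilzomib 9 members were called higher, with HSP90AA1 at 1.40, where 19.5% of all genes were called higher and 37.9% in either direction. The interaction was called positive for 10 members, with HSP90AA1 at 3.58, where 27.7% of all genes were called positive and 56.3% in either direction. The 2 libraries labelled DMSO that remained were those with high HSPA1A and low PER3, so the labels stayed in doubt. These values hold for the labels as given, and no library was moved to another group.

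The effects at 24 h and at 8 h were compared in a fit of both carfilzomib sets over 16831 genes. The carfilzomib effect, taken against DMSO at each time, was higher at 24 h for 9 of 10 members, where 16.3% of all genes were called higher and 33.8% in either direction. For HSP90AA1 the effect was 0.56 at 24 h and -2.02 at 8 h on the log2 scale, and the difference was 2.56 ± 0.53 (adjusted p 0.00195). HSF1 was the member not called, at -0.02 with a 95% interval of -0.25 to 0.22. The combination effect differed in 1 member, CDC37, at 0.48 ± 0.12 (adjusted p 0.0165), where 4.96% of all genes were called higher and 11.6% in either direction. Leaving out DMSO replicate 2 or combination replicate 1 at 8 h, or DMSO replicate 2 at 24 h, took that adjusted p to between 0.0503 and 0.0594. Time and set cannot be told apart here, and the values rest on the doubtful labels at 8 h.

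**Figure D5:**
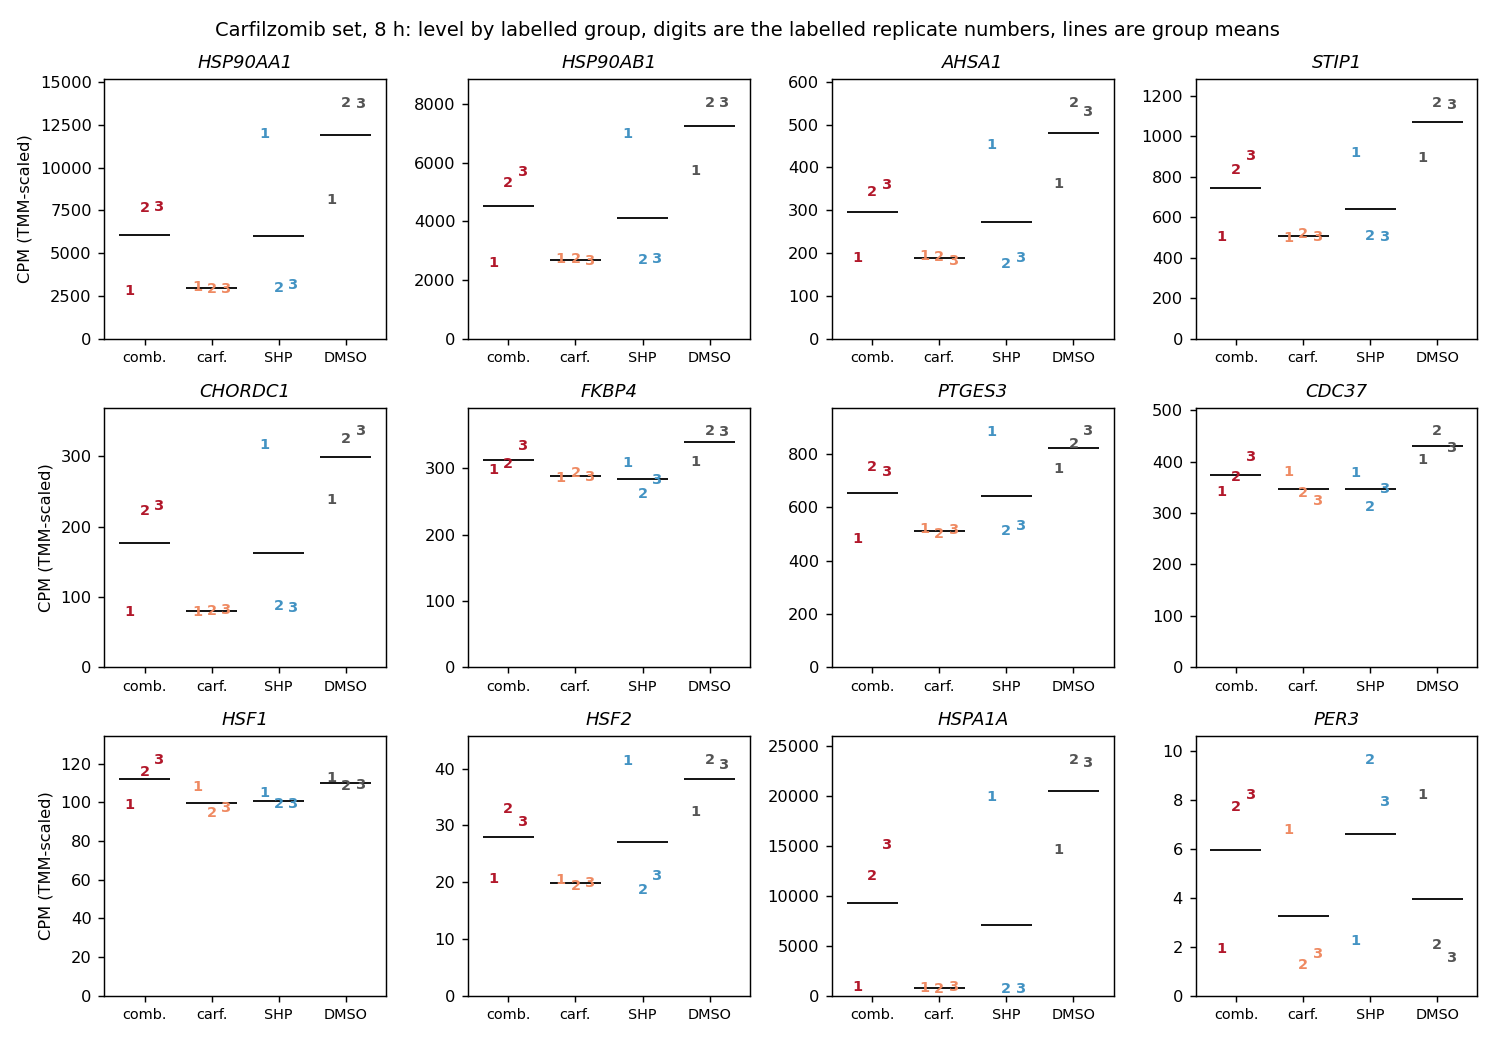
Level in CPM (vertical axis, starting at 0) of each member, HSPA1A and PER3 in the labelled combination, carfilzomib, SHP1705 and DMSO groups of the carfilzomib set at 8 h, with each library drawn as its labelled replicate number and a line at the group mean. Replicate 1 stands apart from replicates 2 and 3 in most panels of the combination, SHP1705 and DMSO groups. In the carfilzomib group it does so in the PER3 panel and, by less, in the CDC37 and HSF1 panels. HSP90AA1 ranges from 2755 to 13810.4 CPM.

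The members rose and fell together over the libraries to different degrees. Over all 36 libraries, on log2 CPM centred within each set, Pearson's r between HSP90AA1 and HSP90AB1 was 0.993, and it was 0.987 with AHSA1, 0.982 with CHORDC1, 0.961 with STIP1, 0.960 with PTGES3 and 0.952 with HSF2. It was lower with FKBP4 (0.872), CDC37 (0.841) and HSF1 (0.632). The libraries share 3 sets and their treatments, and 9 of them hold HSPA1A at 12019.5 CPM or more, so the values are descriptions only. Among 10727 genes tested in all 3 sets with a mean of at least 5 CPM, those most like HSP90AA1 were HSP90AA2P (r 0.9958), EIF5 (0.994) and TCP1 (0.9927). HSP90AA2P is a near-identical pseudogene of HSP90AA1, so its reads may belong to the parent. CHORDC1 was most like HSPH1 (0.9936), STIP1 most like DNAJB6 (0.993), PTGES3 most like CHORDC1 (0.9844) and HSF2 most like RIOK3 (0.9714). FKBP4 was most like PSAT1 (0.964) and CDC37 like TSSC4 (0.9572), while for HSF1 no gene came above INTS1 (0.8805).

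Read sharing limits some of these values. The pseudogenes HSP90AA2P and HSP90AB3P averaged at most 112 and 35.6 CPM in any group, small beside their parents. The strand setting of the counting is not given. Members' exons overlap those of WDR20, VIPAS39, DGAT1, MIR1181 (at CDC37, on the same strand) and other genes on the opposite strand at FKBP4, HSF1 and CHORDC1. Each such gene covers at most 5.5% of a member's exon length, and overlaps from several genes were not added up. Reads there cannot be told apart. On GRCh38, in the gene annotation of GENCODE release 29, HSP90AA1 spans chromosome 14 from 102080738 to 102139699 on the minus strand and HSP90AB1 chromosome 6 from 44246166 to 44253888 on the plus strand. CHORDC1 spans chromosome 11 from 90201160 to 90223364 on the minus strand, PTGES3 chromosome 12 from 56663341 to 56688408 on the minus strand and CDC37 chromosome 19 from 10391134 to 10420121 on the minus strand. All values are over whole genes, and introns, exons and isoforms were not counted separately.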

How the data were processed

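Per the labels' protocols, RNA was purified on columns with DNA digestion before polyA selection. The authors deposited 3 tables of raw counts per gene, made with Trimmomatic, FastQC, HISAT2 and featureCounts on hg38, per the submitters' processing notes. Their versions, the annotation and the strand setting were not given in the sources used here. Columns were joined to samples by treatment and replicate in their names, and 0 columns were left unused. No pair of replicates was identical among the 36 compared.

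Within each table, 12 libraries in 4 labelled groups entered 1 fit. Genes were kept by filterByExpr, scaled with TMM and tested with edgeR 4.0.16 (limma 3.58.1, R 4.3.3), with the quasi-likelihood F-test and Benjamini-Hochberg adjustment over all genes of a contrast. An adjusted p under 0.05 is a call. CPM were computed from the deposited counts, and errors after log2 values are standard errors. A joint fit of both carfilzomib sets gave differences between 24 h and 8 h. Alternatives were relative log expression (RLE) factors, no filter, DESeq2 1.42.0, a block term for the replicate number, and leaving out each library. Added after seeing the data were library totals without scaling factors, and fits that dropped 4 libraries (replicate 1 of each group at 8 h with carfilzomib, or the 4 POSTN-holding libraries outside the combination in the MG132 set). Same-numbered libraries did not deviate together in all pairs, so numbers were not taken as pairs. All members were named in each contrast, with up to 4 further HSP90 genes and 3 heat shock targets by smallest p, and 1 gene this rule named is not reported here. HSPA1A in the MG132 set, CDH2 and CDKN2A were named after their values were seen. The members and lists were chosen with earlier results of these data known. The method was tested on simulated data. Plots used matplotlib 3.10.9 and Python 3.11.15.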

Additional observations from a re-analysis of the deposited data

Results flagged for a closer look

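The carfilzomib effect differed between 24 h and 8 h for 9 of 10 members in a test of the difference itself (edgeR, adjusted p under 0.05, with 16.3% of all genes called higher and 33.8% in either direction). The 24 h minus 8 h difference on the log2 scale was 2.56 ± 0.53 for HSP90AA1 (adjusted p 0.00195), 2.10 ± 0.51 for CHORDC1, 1.65 ± 0.37 for HSP90AB1 and 1.51 ± 0.35 for AHSA1. The FKBP4 and CDC37 differences were not called with library totals (0.07 for FKBP4 and 0.14 for CDC37), with no filter on low counts or without some single libraries. The difference was 1.04 for STIP1, 1.02 for HSF2, 0.85 for PTGES3, 0.34 for CDC37 and 0.28 for FKBP4. HSF1 differed by -0.02, with a 95% interval of -0.25 to 0.22. For HSP90AA1 the effect was 0.56 at 24 h and -2.02 at 8 h.

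The combination effect differed between the times for CDC37 alone, by 0.48 ± 0.12 (adjusted p 0.0165, with 4.96% of all genes called higher and 11.6% in either direction). This call was lost without DMSO replicate 2 or combination replicate 1 at 8 h or DMSO replicate 2 at 24 h (adjusted p 0.0503 to 0.0594). For HSP90AA1 it differed by 1.46 ± 0.52, which was not called (adjusted p 0.0716).

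These differences rest on the labelled libraries at 8 h, where replicate 1 of each labelled group, carfilzomib included, stood apart from the other 2 in PER3. Without the 4 libraries labelled replicate 1 at 8 h, the carfilzomib difference was 2.82 for HSP90AA1 and stayed called for the same 9 members, where 22.8% of all genes were called higher and 45.1% in either direction. The combination difference was then called for 6 members, with HSP90AA1 at 1.33, where 13.6% of all genes were called higher and 26.9% in either direction. The libraries labelled DMSO that remained had high HSPA1A and low PER3, unlike DMSO libraries of the other sets. Leaving out replicate 1 thus did not remove the doubt about the labels.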

How the results depend on the processing

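In the MG132 set all 10 members stayed called in the 3 comparisons with the combination when any library was left out, with 10 to 10 members, and under RLE factors, no filter, DESeq2 and the replicate block. With library totals HSF1 reversed, to -0.0897 against DMSO, -0.0627 against MG132 and -0.0384 for the interaction, and the medians of all genes moved to -0.31, -0.32 and -0.34. The cause was not tested. Members called with library totals were 8, 9 and 9 in these comparisons, and the genes called split into 1954 higher and 8824 lower against MG132 (4684 and 4803 with TMM factors) and 1587 positive and 7881 negative for the interaction (4100 and 4008). The split for SHP1705 against DMSO was 833 higher and 513 lower with library totals, against 572 and 677 with TMM factors. For SHP1705 against DMSO, 1 member was called with RLE factors and 1 with library totals, and 150 genes and 0 members without the 4 POSTN-holding libraries. Leaving out single libraries gave 619 to 892 genes and 0 to 2 members. For MG132 against DMSO, 303 genes were called with no filter, 95 by DESeq2, 3 under the replicate block and 0 to 67 without single libraries.

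In the carfilzomib set at 8 h, with no filter, 1050 genes and 5 members were called for SHP1705 against DMSO, 688 and 5 for the combination against DMSO, 502 and 5 for the combination against carfilzomib and 2337 and 7 for the interaction. DESeq2 called 1 gene for the combination against DMSO, 1 against carfilzomib, and 315 genes with 1 member for the interaction. The replicate block left 0 genes and 0 members for carfilzomib against DMSO, with adjusted p of 0.0889 to 0.09 for the 7 members called without it and HSP90AA1 at -2.03. Without the 4 libraries labelled replicate 1, 7711 genes and 9 members were called for SHP1705 against DMSO, 8421 genes for carfilzomib against DMSO, 2822 and 7 for the combination against DMSO, 5927 and 9 against carfilzomib, and 8811 and 10 for the interaction. Leaving out single libraries gave 0 to 3115 genes and 0 to 8 members for carfilzomib, 0 to 3662 and 0 to 9 for SHP1705, 0 to 2 genes for the combination against carfilzomib, and 0 to 5093 and 0 to 9 for the interaction. With library totals the calls for carfilzomib against DMSO split into 3355 higher and 866 lower, against 1824 higher and 1763 lower, and the median of all genes moved to 0.26.

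At 24 h DESeq2 called 2 members for SHP1705 against DMSO, where its count over all genes is not given here. Leaving out single libraries gave 419 to 687 genes and 0 to 1 members. Members called without single libraries were 2 to 6 for carfilzomib against DMSO, with 2493 to 3756 genes. They were 4 to 6 for the combination against DMSO with 3453 to 3677 genes, and 2 to 4 against carfilzomib with 869 to 1852 genes. The interaction gave 364 genes and 3 members with no filter, 360 and 3 by DESeq2, and 20 to 477 and 0 to 3 without single libraries. For the combination effect between 24 h and 8 h, 5 members were called with no filter, where the count over all genes is not given here. The replicate block left 834 genes and 0 members (CDC37 at 0.48, adjusted p 0.0525). Without the 4 replicate 1 libraries there were 4636 genes and 6 members, and without single libraries 803 to 2669 genes and 0 to 3 members. The carfilzomib effect between the times split into 1758 higher and 3966 lower genes with library totals, against 2745 and 2942 with TMM factors, with a median of -0.26.

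Replicate numbers did not pair the libraries, with same-number correlations of deviations from -0.754 to 0.329 over the 3 sets. The block changed no other count of members by more than 1.5 times. Lone libraries were assumed to vary like the other groups. At 24 h HSF2 and CHORDC1, the members with the lowest CPM, had the widest intervals, while in the carfilzomib set at 8 h HSP90AA1 had the widest, and the part of depth was not tested.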
